A study of Homo sapiens with 35 samples.

Results

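Antigen presentation by MHC class I was followed here through 9 genes. They were HLA-B, HLA-C and HLA-E, which encode heavy chains, B2M, TAP1, TAP2, TAPBP, ERAP1 and NLRC5. They were chosen by name among the 19665 protein-coding entries of the count table, and all 9 were found. RPMI-8226, an established human multiple myeloma cell line, received a 1 h pulse of the proteasome inhibitor carfilzomib at 750 nM and was then grown without the drug. Day 0 and days 1, 2, 4, 6, 8 and 10 were sampled for RNA sequencing, with 5 libraries per day and 35 in all. Per the study's methods, day 0 was collected before the drug was added, although the labels list the treatment for every sample. The methods describe subcultures split from 1 expanded culture, treated together and carried on to day 10, with 5 subcultures for RNA. The days may therefore be serial samples of the same subcultures, and p-values measure the spread between subcultures and not between separate experiments. No group was given vehicle alone, so time in culture and the pulse cannot be told apart.

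Class I molecules display short peptides on the cell surface to CD8+ T cells. Peptides cut by the proteasome in the cytosol are pumped into the endoplasmic reticulum by the transporter TAP, trimmed there by the aminopeptidase ERAP1, and fitted into a heavy chain that is bound to beta-2 microglobulin, the product of B2M. Tapasin, the product of TAPBP, holds the empty molecule next to TAP while it is loaded. NLRC5 is a coactivator of class I promoters, and interferons raise the genes of this pathway, in part through IRF1. Myeloma is a cancer of plasma cells, which secrete antibody and carry class I molecules on their surface. The reads could not be assigned to cells, so fewer cells that express a gene and less RNA per cell cannot be told apart, and a lower value means a lower share of the library.

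The counts of a library over all biotypes summed to between 6519392 and 10962890, and those of its protein-coding entries to between 5373835 and 9307889, with a median of 6191633. Of 17999 entries with a count in any library, 12340 passed a filter on low counts, all 9 class I genes among them. All 8 plasma cell markers of a fixed list were found in all 35 libraries. Their summed level was 6345 to 7259 CPM (counts scaled to a common library total with TMM factors) on day 0, 2567 to 2923 on day 1 and 7105 to 8503 on day 10. On day 1, 6 of these 8 markers fell, by the rule given below, which called 27.3% of all entries lower. Among them was TNFRSF17, which encodes the surface receptor BCMA, with a log2 fold change of −1.93. Of 14 markers of other cells, FCGR3A and COL1A2 had no count and CD3D and HBB were at 0 in 32 libraries. The summed level of the 14 was 81.3 to 106 CPM on day 0 and 124 to 140 on day 1, mostly from EPCAM (up to 95.7 CPM over all libraries) and NCAM1 (up to 51.4 CPM). The part of these markers in the class I values was not tested.

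In GENCODE release 44 (GRCh38), HLA-E (chromosome 6, 30489509 to 30494194, plus strand), HLA-C (chromosome 6, 31268749 to 31272130, minus strand) and HLA-B (chromosome 6, 31353872 to 31367067, minus strand) lie in the MHC. TAP2 (32821833 to 32838739), TAP1 (32845209 to 32853816) and TAPBP (33299694 to 33314284) lie on the minus strand of the same chromosome. B2M (chromosome 15, 44711358 to 44718851, plus strand), ERAP1 (chromosome 5, 96760810 to 96808100, minus strand) and NLRC5 (chromosome 16, 56989485 to 57083531, plus strand) lie elsewhere. RefSeq promoters (GRCh38.p14) were matched for 7 of the 9, in 9 windows of the 250 bases before a start. HLA-E and NLRC5 were not matched. The windows of HLA-B, HLA-C, B2M and TAPBP are shown because the first 3 encode chains of the same complexes and TAPBP was the member that rose above day 0 on several later days. Capitals mark each match to GAAA or GAA followed, after any 2 bases, by GAAA. These are letters of interferon-response elements, both strands were searched, and a match on the other strand reads as its reverse complement. Each sequence runs 5′ to 3′ on the gene's strand, and starts are those of RefSeq, from which GENCODE's can differ.
HLA-B, chr6:31357180-31357429, minus strand: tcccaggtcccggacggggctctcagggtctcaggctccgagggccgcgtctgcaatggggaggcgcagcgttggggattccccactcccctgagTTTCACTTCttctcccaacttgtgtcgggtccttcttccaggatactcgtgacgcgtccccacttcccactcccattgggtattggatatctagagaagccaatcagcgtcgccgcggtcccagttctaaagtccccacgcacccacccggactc
HLA-C, chr6:31272093-31272342, minus strand: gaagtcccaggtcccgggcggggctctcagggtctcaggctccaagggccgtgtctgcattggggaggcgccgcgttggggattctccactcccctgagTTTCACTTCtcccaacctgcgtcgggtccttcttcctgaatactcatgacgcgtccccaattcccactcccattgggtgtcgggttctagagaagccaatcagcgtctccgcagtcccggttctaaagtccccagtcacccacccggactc
B2M, chr15:44711267-44711516, plus strand: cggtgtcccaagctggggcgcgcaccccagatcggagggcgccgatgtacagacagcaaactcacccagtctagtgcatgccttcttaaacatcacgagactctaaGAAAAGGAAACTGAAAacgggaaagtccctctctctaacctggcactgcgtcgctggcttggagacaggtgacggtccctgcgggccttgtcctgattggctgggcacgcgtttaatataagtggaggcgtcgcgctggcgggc
TAPBP, chr6:33314079-33314328, minus strand: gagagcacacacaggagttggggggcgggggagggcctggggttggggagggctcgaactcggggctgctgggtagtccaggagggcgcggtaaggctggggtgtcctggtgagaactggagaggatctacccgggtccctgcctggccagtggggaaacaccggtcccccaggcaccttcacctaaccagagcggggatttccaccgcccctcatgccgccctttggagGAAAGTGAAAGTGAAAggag

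The heavy chain windows hold 1 match each, of the form that begins with GAA, at bases −155 to −147 (HLA-B) and −151 to −143 (HLA-C) from the start. In B2M, 2 overlapping matches of the form with GAAA on both sides span bases −144 to −129, and in TAPBP 2 span bases −20 to −5. TAP1 and TAP2 hold matches of the latter form as well, so that 4 of the 7 genes do, against 3.02% of all 35116 RefSeq promoter windows of that length. The form that begins with GAA was found in 4 of the 7 (ERAP1, HLA-B, HLA-C and TAP2) and in 6.56% of all windows, and in ERAP1 only in the window of its start farther upstream. Either form was found in 7 of the 7 and in 9.08% of all windows. Here a gene counts if any of its windows holds a match, whereas the shares are of single windows. ERAP1 and TAP1 have 2 windows each, with either form in only 1 of them, so gene counts and window shares are not like for like. TGACG, a core of the sites of CREB and ATF factors, was found in B2M, HLA-B, HLA-C and TAP2, and in 21.2% of all windows. ATTGG, the letters bound by NF-Y, was found in 5 genes and in 32.0% of all windows, and the NF-kappaB consensus in 6 genes and in 9.96%. These motifs were chosen after the sequences had been seen, and a match describes letters, not a bound site.

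After the pulse, most of the 9 transcripts fell. On day 1, 6 were below day 0 (HLA-B, HLA-E, B2M, TAPBP, ERAP1 and NLRC5) and TAP2 was above it, at an adjusted p (Q) of at most 0.05 from edgeR's quasi-likelihood test over all entries tested. By that rule 52.7% of all entries tested were called, 25.4% as higher and 27.3% as lower. On day 2, 7 were lower and none higher (47.7% of all entries called, 24.4% lower), where DESeq2 called 8. On day 4, 5 were lower and TAPBP higher (39.1% called, 19% higher and 20.1% lower). On day 6, 6 were lower and TAPBP higher (34.5% called, 17.5% higher and 17% lower). On day 8, 6 were lower and TAPBP higher (36.8% called, 18.2% higher and 18.6% lower). On day 10, 5 were below day 0 (HLA-B, HLA-E, TAP1, TAP2 and ERAP1) and none was above it (31.9% called, 15.8% lower). The 6 later days gave median log2 fold changes of −0.57, −0.48, −0.45, −0.28, −0.32 and −0.26 over the 9, in order of time. The median of all entries tested lay between −0.06 and 0 on the same days. HLA-E, HLA-B and ERAP1 were lower on all 6 days, and their libraries of each of these days lay below all day 0 libraries. Of all entries tested, 20.1%, 18.2%, 14.6%, 12.4%, 12.9% and 11.5% lay below day 0 without overlap on these days in turn.

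**Figure D1:**
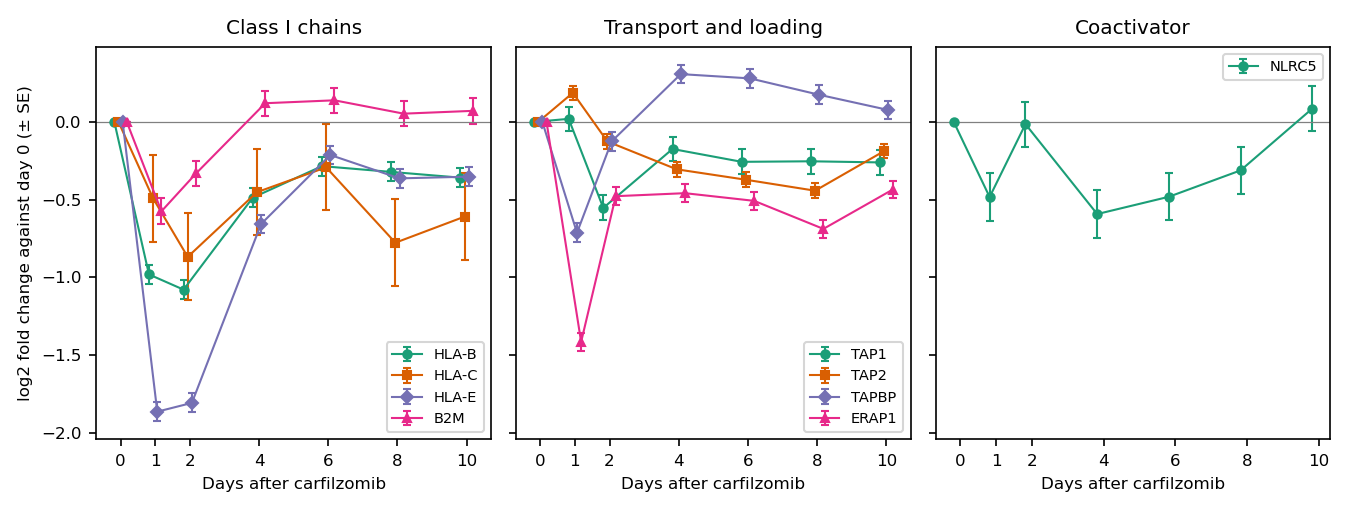
The vertical axis gives the log2 fold change against day 0 and the horizontal axis the day. Points are fitted values from 5 libraries per day and bars are ± 1 SE. HLA-E and ERAP1 stand lowest on day 1 (−1.86 and −1.41), B2M and TAPBP stand above 0 from day 4, and HLA-C has the widest bars among the class I chains.

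Among the heavy chains, HLA-E fell most on days 1 and 2. HLA-E is a nonclassical chain that presents leader peptides of other class I chains and is read by the receptor NKG2A on natural killer cells. On day 0 the 5 libraries had 854, 825, 791, 828 and 845 CPM. On day 1 they had 223, 229, 223, 235 and 229 CPM. On day 2 they had 230, 267, 235, 204 and 247 CPM. Every library of days 1 and 2 was thus far below every day 0 library. The log2 fold change was −1.86 on day 1 (SE 0.06, adjusted p = 1.16e-26 from edgeR), which left 27.5% of the day 0 level, and −1.81 on day 2 (SE 0.06). The level then rose between days 2 and 4 by 1.15 on the log2 scale (SE 0.06, adjusted p = 4.57e-18 from edgeR), to 526 ± 29.6 CPM (SD, n = 5). It rose again between days 4 and 6 (log2 fold change 0.44, SE 0.06), to 715 ± 45.1 CPM. On day 10 the libraries had 630, 701, 680, 658 and 577 CPM. All 5 remained below every day 0 library (log2 fold change −0.35, SE 0.06, adjusted p = 5.73e-06 from edgeR). In order of level, day 0 came first and day 6 second, days 6, 10 and 8 overlapped, day 4 stood apart below them, and days 2 and 1 overlapped at the bottom.

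HLA-B, a classical chain that presents peptides to T cells, fell on the same days and by less. Its day 0 libraries had 1834, 1768, 1598, 1732 and 1763 CPM. The day 1 libraries had 850, 858, 886, 929 and 884 CPM. The day 2 libraries had 844, 922, 816, 719 and 815 CPM. Days 1 and 2 overlapped each other and lay below all other days. The log2 fold change was −0.98 on day 1 (SE 0.06, adjusted p = 1.69e-17 from edgeR) and −1.08 on day 2 (SE 0.06, adjusted p = 1.16e-18 from edgeR). HLA-B and HLA-E were the 2 members that passed a 2-fold cutoff as well on day 2, as 8.94% of all entries did in that direction. From day 2 to day 4 HLA-B rose by 0.59 (SE 0.06) on the log2 scale, and from day 4 to day 6 by 0.20 (SE 0.06). On day 10 the libraries had 1292, 1461, 1458, 1358 and 1214 CPM, all below the lowest day 0 library (log2 fold change −0.36, SE 0.06, adjusted p = 7.58e-06 from edgeR). Days 6, 8 and 10 overlapped.

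**Figure D2:**
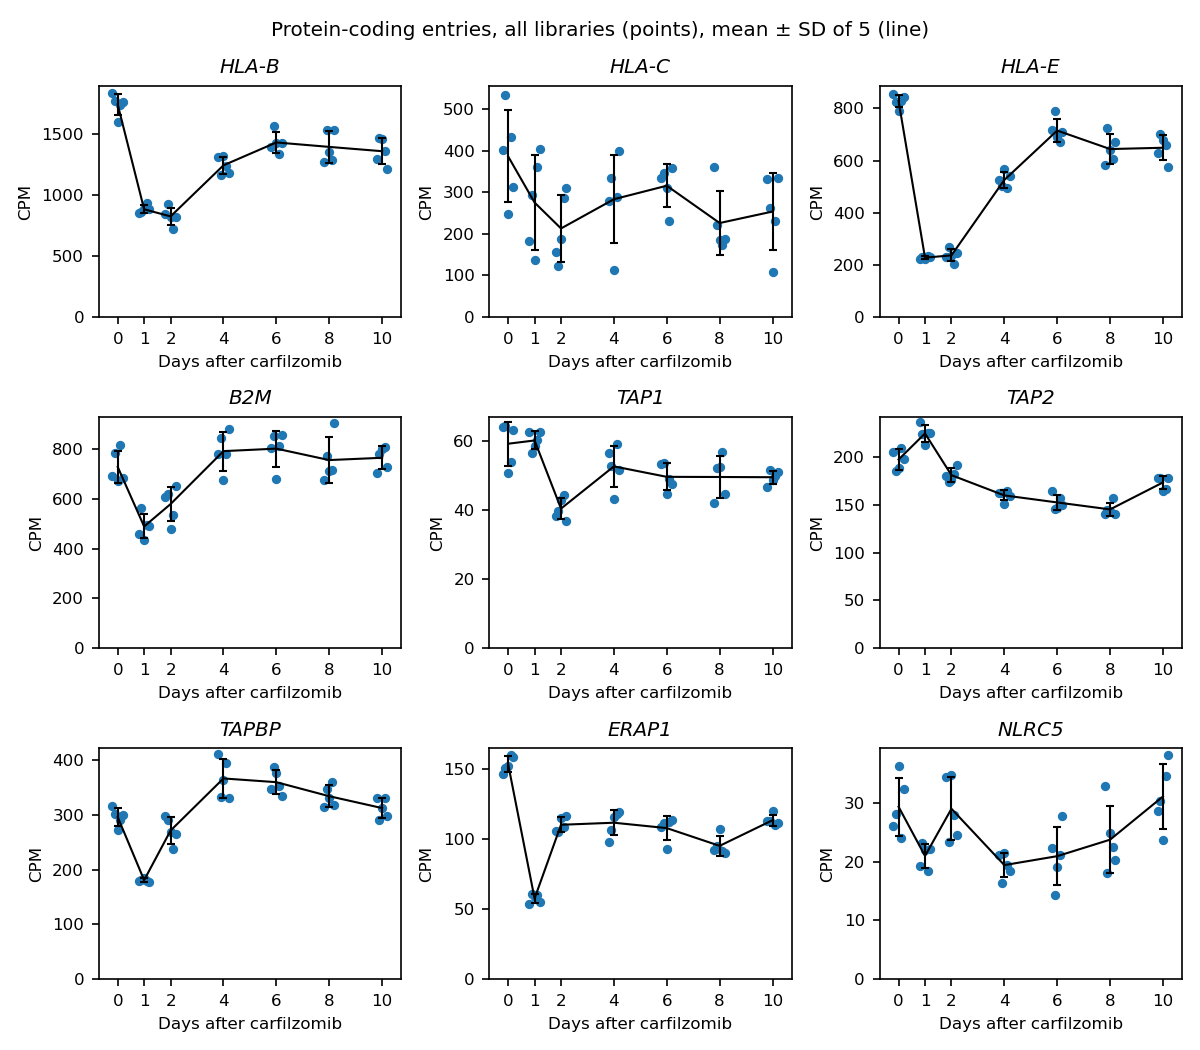
Each panel plots the level of a protein-coding entry in CPM (vertical axis, from 0) against the day (horizontal axis). Points are single libraries, the line joins day means and bars are ± 1 SD of 5 libraries. HLA-E drops from 829 to 228 CPM between days 0 and 1, TAPBP returns to and passes its day 0 mean of 296 CPM, and the HLA-C points scatter widely on each day.

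HLA-C, the other classical chain and a ligand of killer-cell immunoglobulin-like receptors, varied too much between libraries for its protein-coding entry to show most changes. On day 0 that entry had 403, 534, 248, 432 and 313 CPM. On day 1 it had 182, 294, 136, 360 and 404 CPM. On day 10 it had 332, 262, 109, 230 and 335 CPM. The libraries of every later day overlapped those of day 0. The log2 fold change passed the threshold on day 2 (−0.87, SE 0.28, adjusted p = 0.00909 from edgeR) and on day 8 (−0.78, SE 0.28, adjusted p = 0.0258), while it was −0.49 on day 1 and −0.61 on day 10 (adjusted p = 0.141 and 0.0956 from edgeR). The day 8 call was lost when any of 6 single libraries was left out, with values from −0.61 to −0.76: replicates 2, 3, 4 and 5 of day 8 and replicates 2 and 4 of day 0. Without replicate 5 of day 1 the day 1 change was −0.69 and passed (adjusted p = 0.0492 from edgeR), and without replicate 3 of day 0 the day 10 change was −0.73 and passed (adjusted p = 0.0498). With only days 0 and 10 compared it was −0.59 and passed (adjusted p = 0.0362 from edgeR).

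Much of that scatter lay in how the counts of HLA-C were divided among transcript biotypes. The table holds HLA-C as protein-coding, nonsense-mediated decay and retained-intron entries, nonsense-mediated decay being the route that degrades transcripts with an early stop. The protein-coding entry held between 22.6% and 93.0% of the gene's counts in a library and the nonsense-mediated decay entry between 1.81% and 72.7%. The coefficient of variation within a day had a median of 36.4% for the protein-coding entry and of 5.30% for the sum over biotypes. Summed, HLA-C had 526 ± 27.9 CPM (SD, n = 5) on day 0, 382 ± 15.3 CPM on day 1, 310 ± 24.6 CPM on day 2 and 419 ± 20.7 CPM on day 10. The 5 summed libraries of day 0 lay between 482 and 558 CPM, above the 360 to 400 CPM of day 1 and the 383 to 433 CPM of day 10. The summed gene was called lower on all 6 days, with log2 fold changes of −0.46, −0.76, −0.44, −0.29, −0.28 and −0.33 in order of time (SE 0.06 each). The adjusted p from edgeR was 8.25e-10 on the first of these days and 6.33e-06 on the last. Class I heavy chain genes are highly alike and vary between people, so the authors' assignment of reads could have split them among these genes as well as among biotypes, and the values of HLA-B, HLA-C and HLA-E are uncertain to that extent.

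**Figure D3:**
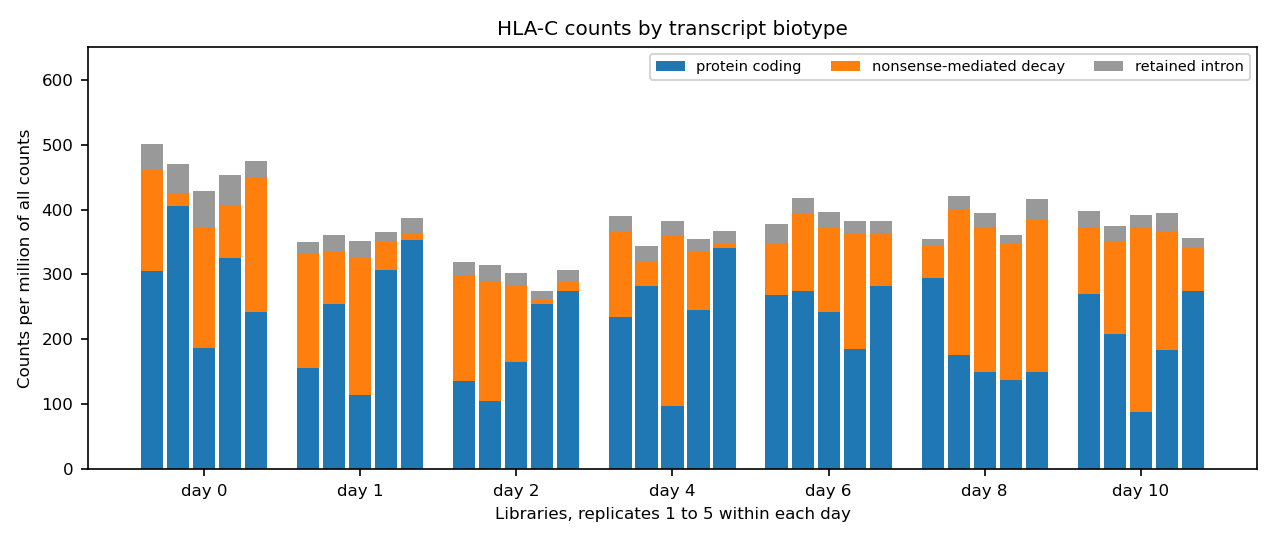
Each bar is a library, 5 per day, and its height is the HLA-C level in CPM of the counts of all biotypes, without TMM factors, divided into protein-coding (blue), nonsense-mediated decay (orange) and retained-intron (grey) entries. The blue share runs from 22.6% to 93.0% of a bar, while the whole bars differ little within a day.

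B2M, whose product is the light chain shared by all these molecules, fell early and came back. On day 0 the libraries had 690, 783, 670, 815 and 683 CPM. On day 1 they had 457, 563, 436, 496 and 492 CPM. On day 2 they had 607, 621, 479, 537 and 651 CPM. Both days lay below day 0 without overlap. The log2 fold change was −0.57 on day 1 (SE 0.08, adjusted p = 1.02e-07 from edgeR) and −0.33 on day 2 (SE 0.08, adjusted p = 0.000747). B2M rose between days 1 and 2 by 0.24 and between days 2 and 4 by 0.45 (SE 0.08 each). On days 4, 6, 8 and 10 its values were 0.12, 0.14, 0.05 and 0.07 above day 0 (SE 0.08 each), none past the threshold. Without scaling factors the day 4 value was 0.24 and passed (adjusted p = 0.0128 from edgeR). The protein-coding entry held 34.2% of all B2M counts, next to 47.9% in a nonsense-mediated decay entry. Summed over biotypes, B2M had 1842 ± 122 CPM (SD, n = 5) on day 0 and 1278 ± 66.2 CPM on day 1, and days 4 and 6 were higher than day 0 by 0.18 and 0.16 (SE 0.06 each, adjusted p = 0.0120 and 0.0301 from edgeR).

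Counts within a library were set against each other to compare heavy and light chains without any scaling of libraries. A count ratio between genes depends on transcript length, so only its change with the day was read. Over 15 such tests, each an exact two-sided permutation test of 5 against 5 libraries, the smallest p possible is 0.00794. The ratio of HLA-E to B2M was 1.24, 1.05, 1.18, 1.02 and 1.24 on day 0. It was 0.49, 0.41, 0.51, 0.47 and 0.47 on day 1 and 0.38, 0.43, 0.49, 0.38 and 0.38 on day 2. On day 10 it was 0.90, 0.90, 0.85, 0.81 and 0.79, still below all day 0 libraries. For days 1, 2 and 10 its log2 difference from day 0 was −1.29, −1.48 and −0.43 (exact permutation test, p = 0.00794 and q = 0.0170 each). The log2 ratio of HLA-B to B2M fell as well, by 0.40, 0.75 and 0.43 on the same days, with all libraries below day 0 (exact permutation test, p = 0.00794 and q = 0.0170 each). HLA-C to B2M changed by 0.02, −0.56 and −0.73 on these days (exact permutation test, q = 0.921, 0.202 and 0.119). With counts summed over biotypes, the changes on days 2 and 10 were −0.43 and −0.38 and passed (exact permutation test, q = 0.0108 each). HLA-B to HLA-C changed by −0.43, −0.19 and 0.30 (exact permutation test, q = 0.357, 0.646 and 0.604). Summed over biotypes it fell by 0.52 on day 1 and 0.29 on day 2 (exact permutation test, q = 0.0108 each), while the day 10 difference was −0.01, opposite in sign.

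**Figure D4:**
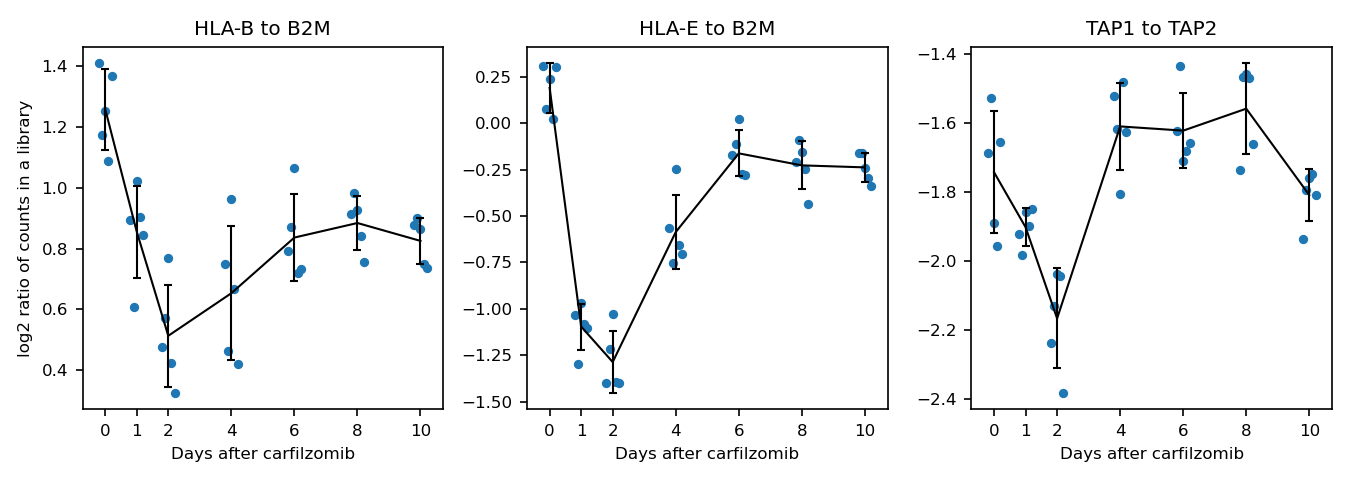
The vertical axis is the log2 ratio of 2 counts in the same library and the horizontal axis the day. Points are libraries, the line joins day means and bars are ± 1 SD of 5. HLA-B to B2M and HLA-E to B2M drop on days 1 and 2 and stay below day 0 on day 10, and TAP1 to TAP2 is lowest on day 2.

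Of the subunits of the peptide transporter, TAP2 was called higher on day 1 and TAP1 was not called. Their ratio on that day did not differ from day 0 past the threshold (exact permutation test, q = 0.198). TAP1 had 63.8, 64.1, 50.8, 53.9 and 62.9 CPM on day 0 and 62.5, 56.5, 58.6, 60.2 and 62.6 CPM on day 1, with full overlap (log2 fold change 0.02, SE 0.08), and its sign on that day depended on the scaling. On day 2 TAP1 had 38.2, 39.7, 42.8, 44.3 and 36.8 CPM, all below day 0 (log2 fold change −0.55, SE 0.08, adjusted p = 1.73e-07 from edgeR). From day 6 to day 10 it stood at −0.25 to −0.26 (SE 0.08), past the threshold but with overlapping libraries. Summed over biotypes it passed on day 4 too (−0.23, SE 0.06). The day 8 call was lost without replicate 1 of day 0 (−0.21), replicate 2 of day 0 (−0.20), replicate 1 of day 8 (−0.18) or replicate 5 of day 8 (−0.20). The day 10 call was lost without replicate 2 of day 0 (−0.21) and without scaling factors (−0.19).

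TAP2 rose on day 1 from 206, 185, 188, 210 and 198 CPM to 237, 224, 213, 225 and 226 CPM. The groups did not overlap (log2 fold change 0.19, SE 0.05, adjusted p = 0.000609 from edgeR). From day 4 on TAP2 was lower than day 0, with its lowest levels on day 8 (140, 144, 144, 157 and 141 CPM, log2 fold change −0.44, SE 0.05, adjusted p = 2.44e-10 from edgeR). It rose between days 8 and 10 by 0.26 (SE 0.05), and without scaling factors the day 10 difference from day 0 (−0.12) was not called. The day 2 difference was small (−0.13, SE 0.05, adjusted p = 0.0221 from edgeR), and the call was lost with counts summed over biotypes (−0.05), with only the 2 days compared (−0.09) and without scaling factors (0.0039, opposite in sign). The log2 ratio of TAP1 to TAP2 differed from day 0 by −0.16, −0.42 and −0.07 for days 1, 2 and 10 (exact permutation test, q = 0.198, 0.0170 and 0.604). Summed over biotypes, the ratio fell by 0.29 on day 1 (exact permutation test, q = 0.0198). TAP1 lies head to head with PSMB9, an immunoproteasome subunit gene on the opposite strand, which was at 0.05 on day 1 (SE 0.10, not past the threshold) and rose on day 2 (0.46, SE 0.09, adjusted p = 4.22e-05 from edgeR). The library kit kept strand, but whether the counting used it is not given in the sources used here.

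TAPBP, which encodes the loading chaperone tapasin, fell on day 1 and later rose past day 0. Its day 0 libraries had 315, 301, 273, 291 and 300 CPM. The day 1 libraries had 179, 182, 185, 180 and 177 CPM, a narrow group far below. The day 4 libraries had 410, 332, 364, 394 and 331 CPM. The day 4 group lay above every day 0 library. The log2 fold change was −0.71 on day 1 (SE 0.06, adjusted p = 2.45e-13 from edgeR), 0.31 on day 4 (SE 0.06, adjusted p = 4.27e-05), 0.28 on day 6 (SE 0.06) and 0.17 on day 8 (SE 0.06, adjusted p = 0.0183), the last with overlapping libraries. The day 8 call was lost without replicate 3 of day 0 (0.15). On day 2 TAPBP stood at −0.13 (SE 0.06, adjusted p = 0.0833 from edgeR), and DESeq2, its size factors and the filter on low counts each gave a call of lower (−0.15, −0.15 and −0.16). On day 10 it was at 0.08 (SE 0.06), not past the threshold, and without scaling factors it was called higher (0.14, adjusted p = 0.0433 from edgeR).

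ERAP1, which trims peptides to the length that class I chains hold, fell most sharply among the loading genes. On day 0 it had 146, 150, 152, 160 and 158 CPM. On day 1 it had 53.4, 60.8, 58.3, 60.0 and 55.1 CPM. Every day 1 library lay far below every day 0 library. The log2 fold change was −1.41 on day 1 (SE 0.06, adjusted p = 5.15e-23 from edgeR), and ERAP1 and HLA-E were the members past the 2-fold cutoff that day, with 13.2% of all entries in that direction. ERAP1 rose between days 1 and 2 by 0.94 (SE 0.06), to 110 ± 5.35 CPM (SD, n = 5), and did not reach day 0 again. It was at 112 ± 9.06 CPM on day 4, 95 ± 7 CPM on day 8 and 113 ± 3.90 CPM on day 10 (log2 fold change −0.44, SE 0.06, adjusted p = 5.05e-08 from edgeR), below every day 0 library each time. Days 10, 4, 2 and 6 overlapped in that order.

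NLRC5, the class I coactivator, had a median coefficient of variation within a day of 17.8%, above that of every other member but HLA-C. For its sum over biotypes that median was 4.36%. The protein-coding entry of NLRC5 held between 35.5% and 71.6% of the gene's counts in a library. The day 0 libraries of that entry had 26.0, 28.1, 36.3, 24.0 and 32.3 CPM. On day 1 they had 19.3, 23.1, 22.0, 18.4 and 22.1 CPM, below day 0 without overlap (log2 fold change −0.48, SE 0.15, adjusted p = 0.00661 from edgeR). On day 2 they had 34.4, 23.4, 34.8, 27.9 and 24.5 CPM, overlapping day 0, and the sign of the difference from day 0 depended on the processing (−0.01, SE 0.15). NLRC5 was lower again on day 4 (−0.59, SE 0.15, adjusted p = 0.00152 from edgeR) and day 6 (−0.48, SE 0.15, adjusted p = 0.0101), and did not differ past the threshold on day 10 (0.09, SE 0.15). The day 6 call was lost without replicate 2 of day 6 (−0.37), and the day 8 value of −0.31 became −0.43 and passed without replicate 1 of day 8. Summed over biotypes, where its protein-coding entry held 56.3% of the counts, NLRC5 was lower on days 1, 4, 6 and 8 (−0.59, −0.38, −0.37 and −0.32, SE 0.07 to 0.08).

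Successive days were compared as well. From day 1 to day 2, 4 class I genes rose (B2M, TAPBP, ERAP1 and NLRC5) and 2 fell (TAP1 and TAP2), where 39.6% of all entries were called. From day 2 to day 4, 5 rose (HLA-B, HLA-E, B2M, TAP1 and TAPBP) and 2 fell (TAP2 and NLRC5), against 30.6% of all entries. HLA-B and HLA-E rose from day 4 to day 6 (12.1% of all entries called). From day 6 to day 8 edgeR and DESeq2 called 0 of the 9 (2.56% of all entries), and 2 of them, HLA-E and ERAP1, had an unadjusted edgeR p under 0.05. TAP2 and ERAP1 rose from day 8 to day 10 (10.1% of all entries), by 0.26 and 0.25.

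No member had another member among the entries nearest to it in level over the 35 libraries, by the root mean square distance of log2 CPM centred on day 0, among 12217 other entries. Nearest to HLA-E were CCNG1 (0.13), which encodes cyclin G1, and HERPUD1 and RNASET2 (0.17 and 0.18). FAM46C and THEMIS2 stood close to HLA-B (0.11 and 0.12). ERAP1 was nearest to MANF (0.16), a secreted factor of the endoplasmic reticulum, and to SERP1 and SMIM19. B2M was nearest to CTDSP1, MPG and SNX9 (0.14 to 0.15), and TAPBP to C11orf68, CYBA and GPAA1 (0.12 to 0.13). TAP1 was nearest to GPR107, TPRG1L and CNPPD1 (0.13 to 0.15), and TAP2 to FAF2, SEC22C and ADAR (0.11). For HLA-C (ZNF513, SLC25A28 and PCNX2) the nearest distances were 0.45 to 0.48, and for NLRC5 (PARP9, CPSF6 and RBFA) 0.26 to 0.27. The nearest member to HLA-E was HLA-B, at rank 189.

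Most cytosolic peptidases, which cut or destroy peptides before transport, rose early. Of 7 cytosolic peptidases, 6 were higher on day 1 and none was lower, and 5 were higher on day 2, with median log2 fold changes of 0.57 and 0.41. Of all entries tested, 25.4% were called higher on day 1, and 47.7% were called in either direction on day 2. IDE, the insulin-degrading enzyme, went from 35.6 ± 4.45 to 104 ± 5.68 CPM (SD, n = 5) on day 1 (log2 fold change 1.55, SE 0.09, adjusted p = 2.67e-19 from edgeR). THOP1, thimet oligopeptidase, which destroys many cytosolic peptides, rose by 1.24 on day 2 (SE 0.09) and stood at 0.46 on day 10 (SE 0.09, adjusted p = 0.000137 from edgeR). LAP3, an aminopeptidase induced by interferon-gamma, was the lowest of the list on day 1 (−0.14, SE 0.06, not past the threshold), and NRDC was the lowest on days 2 and 10 (−0.12 and −0.16, not past it). Among 5 immunoproteasome and PA28 genes, day 1 had 3 higher and 1 lower, and day 2 had 3 higher (52.7% and 47.7% of all entries called). PSME2, a PA28 subunit, rose by 0.90 on day 2 (SE 0.08, adjusted p = 1.55e-12 from edgeR), and its partner PSME1 fell by 0.32 on day 1. PSMB8, a catalytic subunit, was the only one of the 5 still called on day 10 (0.19, SE 0.06).

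The partners in folding and peptide trimming were divided. Of 8 folding and trimming genes, 2 rose and 4 fell on day 1, 2 rose and 3 fell on day 2, and 2 rose and 2 fell on day 10. On these days 52.7%, 47.7% and 31.9% of all entries were called. ERAP2, the sister enzyme of ERAP1, went the opposite way on day 1, from 78.1 ± 4.80 to 167 ± 5.58 CPM (SD, n = 5; log2 fold change 1.09, SE 0.06, adjusted p = 4.21e-19 from edgeR), and was 0.33 below day 0 on the log2 scale on day 10. LNPEP, an endosomal aminopeptidase, rose on day 2 and day 10 (0.34 and 0.45, SE 0.07 each). TAPBPL, which edits peptides as tapasin does, fell on day 1 (−0.68, SE 0.09), PDIA3, the disulfide isomerase bound to tapasin, fell on day 10 (−0.39, SE 0.10), and CANX, the chaperone of new heavy chains, fell on day 2 (−0.45, SE 0.05). Of 8 factors that bind class I promoters, 4 rose and 2 fell on day 1, and 3 rose and 1 fell on day 10 (52.7% and 31.9% of all entries called). RFXANK was the highest on day 1 (0.37, SE 0.12) and RFXAP the lowest (−0.92, SE 0.16), both parts of the RFX complex. CREB1 was the highest on day 10 (0.67, SE 0.09) and NFYA the lowest (−0.56, SE 0.07).

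More interferon-stimulated genes were lower than higher on each later day. Among 35 interferon-stimulated genes, day 1 had 7 higher and 16 lower and day 2 had 2 and 19. From day 4 onward 1 gene was higher each time, while 22, 26, 23 and 21 were lower. Of all entries, 27.3%, 24.4%, 20.1%, 17%, 18.6% and 15.8% were called lower on the later days in turn, from day 1. Their median log2 fold change was −0.46 on day 1, −0.88 on day 6 and −0.84 on day 10, next to medians of −0.06, 0 and −0.02 over all entries. Over the 31 of them that passed the filter on low counts, it was −0.46, −0.67 and −0.61 on these days. All entries that passed had medians of 0.0067, 0.0088 and 0.0023. BST2, which encodes the membrane protein tetherin, was the highest of the list on days 2 and 10 (0.68 and 0.53, SE 0.06 each). XAF1 was the lowest on day 1, from 11.4 ± 1.65 to 0.579 ± 0.334 CPM (SD, n = 5). OASL, related to the antiviral oligoadenylate synthetases, was the lowest on day 2 (−2.38, SE 0.18). IFI44 was the highest on day 1 (2.37 ± 2.02 to 9.89 ± 3.07 CPM) and the lowest on day 10 (0.325 ± 0.274 CPM). Its day 0 level was low and scattered widely, so the size of both changes is uncertain.

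Among 14 interferon receptor and signalling genes, day 1 had 2 higher and 8 lower, and day 10 had 3 and 6 (52.7% and 31.9% of all entries called). IFNAR1, a chain of the type I receptor, was the highest on days 1 and 10 (0.70 and 0.46, SE 0.05 each), IRF2 the highest on day 2 (0.56, SE 0.06), SOCS3 the lowest on day 1 (−1.39, SE 0.20) and SOCS1, from 2.38 ± 0.503 CPM, the lowest on days 2 and 10 (0.704 ± 0.197 and 0.558 ± 0.514 CPM, SD, n = 5). JAK1 and IRF1 were chosen after their values were seen. JAK1, a kinase of both receptor types, fell from 385 ± 3.03 to 181 ± 8.54 CPM on day 1 (log2 fold change −1.09, SE 0.05), and IRF1, a factor that acts on class I promoters, was lower on days 1, 2 and 10 (−0.68, −0.96 and −0.60, SE 0.07 each). These lists were chosen with results of these data known and are not independent evidence.

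**Figure D5:**
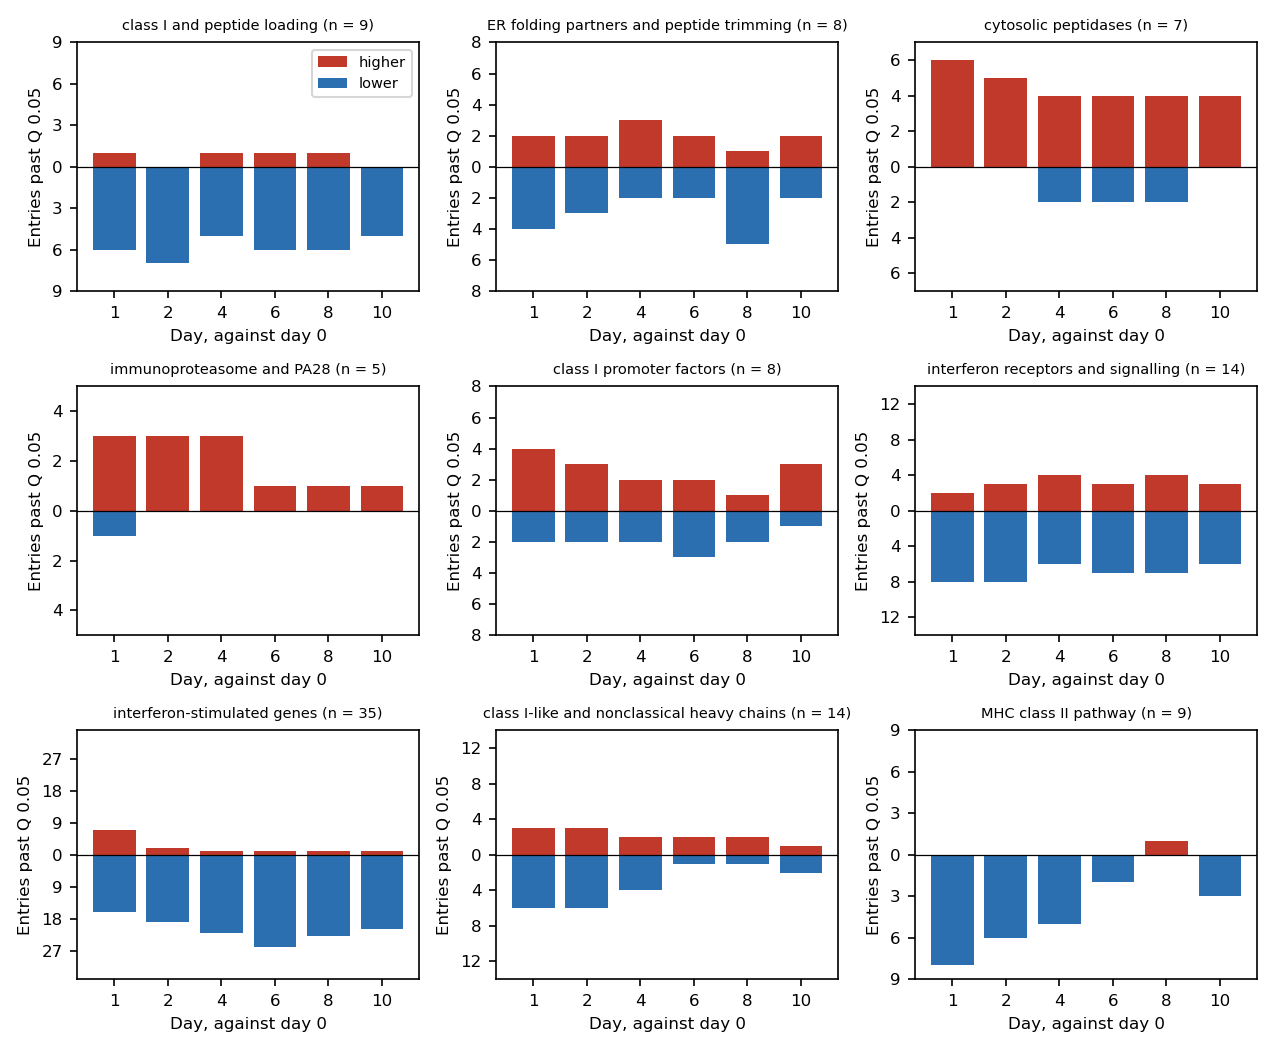
Bars above 0 count the entries of a list that were higher than day 0 and bars below 0 those that were lower, at Q of at most 0.05 (vertical axis, running to the number tested), for each later day (horizontal axis). The 35 interferon-stimulated genes have more lower than higher entries on each day (21 lower and 1 higher on day 10), and cytosolic peptidases are mostly higher. The lower MHC class II bars shrink from 8 on day 1 to 0 on day 8 and reach 3 on day 10. Of all entries tested, 52.7% were called on day 1 and 31.9% on day 10.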

How the data were processed

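RNA from subcultures of RPMI-8226 cells (35 libraries, 5 on each of 7 days, replicate numbers as in the labels) was sequenced with a strand-keeping kit. The deposited table holds whole-number estimated counts, which the authors made with Kallisto (0.44.0, per the labels) against GENCODE transcripts of GRCh38, adjusted for GC bias, and summed per symbol and transcript biotype with tximport, adjusted for length. Such estimates divide reads among alike transcripts, so counts of HLA genes and of biotypes of a gene can trade reads. All 35 value columns were mapped, with 0 of no listed sample.

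Of 19665 protein-coding entries, 17999 with any count were tested with edgeR 4.0.16 (R 4.3.3), by the quasi-likelihood test with TMM factors (0.929 to 1.08) and the day as the only term, over all libraries together, and Benjamini-Hochberg adjustment over all entries. The threshold was Q of at most 0.05, and a 2-fold cutoff was named where used. SE was the log2 fold change divided by the square root of the F statistic. CPM used TMM-scaled totals. Ratios (0.5 added to each count) were compared by exact permutation in scipy 1.17.1 and adjusted over 15 tests. Positions came from GENCODE release 44 and promoters from RefSeq. Beyond the 9 genes, each other list gave its highest and lowest entry on days 1, 2 and 10 among those with a mean log2 CPM above 0, and each gene its 3 nearest entries. One entry that the rule picks is not reported here. The 9 genes and all lists were chosen with earlier results of these data known. Alternatives were DESeq2 1.42.0, its size factors, no factors, a filter on low counts, the replicate number as a block, only the 2 days compared, counts summed over biotypes, and each library left out in turn. On data simulated for day 1 against day 0 (16593 entries), the fit recovered 100 of 100 4-fold and 74 of 100 1.5-fold changes and called 8 of 16393 unchanged entries. The changed entries were few and drawn from those without low counts, whereas 52.7% of all real entries were called on day 1. These rates therefore need not hold for the real comparison. No pair of libraries of a day agreed within sampling noise (chi-square per degree of freedom 2.49 to 9.17).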

Additional observations from a re-analysis of the deposited data

Results flagged for a closer look

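In 4 of 63 sets of 5 libraries (9 genes, 7 days), the highest or lowest library stood apart from the others by more than 0.71 of the set's range, the limit of Dixon's test for 5 samples. Chance flags about 1 set in 20. For HLA-C on day 8, replicate 1 had 361 CPM and the others 173 to 222. For TAP2 on day 8, replicate 4 had 157 CPM and the others 140 to 144. For ERAP1, replicate 3 had 92.9 CPM on day 6, where the others had 109 to 114, and on day 8 replicate 3 had 107 CPM, where the others had 89.6 to 94.7.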

How the results depend on the processing

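Counts of class I genes past the threshold stayed within 1.5 times their value in 105 repeats with a library left out and 75 with another setting, and not in 5 and 2. The exceptions were day 6 against day 4, where 2 genes became 1 without scaling factors and with counts summed over biotypes, and 1 to 2 with single libraries left out, and day 8 against day 6, where 0 became 0 to 1. With libraries left out, the counts against day 0 were 7 to 8 on day 1, 7 to 8 on day 2, 6 to 7 on day 4, 6 to 7 on day 6, 5 to 7 on day 8 and 4 to 6 on day 10. Summed over biotypes, 7, 6, 7, 7, 7 and 6 were lower and 1, 0, 2, 2, 1 and 0 higher on these days in turn. By that sum 56.4%, 51.4%, 43.7%, 39.1%, 41.8% and 36.2% of all entries were called. Without factors, the median log2 fold change of the entries that passed the filter on low counts moved up. The shift was 0.114, 0.127 and 0.113 on days 1, 2 and 4, and 0.047 to 0.066 later. On day 2 this turned the sign of TAP2 (0.0039), TAPBP (0.00137) and NLRC5 (0.113), and on day 10 TAP1 (−0.19) and TAP2 (−0.12) were no longer called, while B2M on day 4 (0.24) and TAPBP on day 10 (0.14) were. TAP2 on day 2 was not called summed over biotypes (−0.05) or with only the 2 days compared (−0.09). NLRC5 on day 2 was 0.0205 with only the 2 days compared and −0.11 to 0.07 with libraries left out (above 0 without replicates 2 or 5 of day 2 or 3 or 5 of day 0: 0.0464, 0.0376, 0.0731 and 0.00709). TAP1 on day 1 was −0.00794 with DESeq2's size factors, −0.0135 with the filter, −0.00834 with DESeq2, −0.0209 summed over biotypes and −0.0301 to 0.0415 with libraries left out (below 0 without replicates 1 or 5 of day 1 or 3 or 4 of day 0: −0.00759, −0.0093, −0.0301 and −0.0247). B2M on day 8 ran from −0.00169 (without replicate 5 of day 8) to 0.112. TAPBP on day 2 passed without replicates 1 or 2 of day 2 or 3 of day 0 (−0.16, −0.16 and −0.15), and TAP1 on day 4 without replicate 3 of day 0 or 4 of day 4 (−0.22 each). These causes were not tested.

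Summed over biotypes, HLA-C to B2M on days 2 and 10 (−0.43 and −0.38), HLA-B to HLA-C on days 1 and 2 (−0.52 and −0.29) and TAP1 to TAP2 on day 1 (−0.29) passed the threshold, and HLA-B to HLA-C on day 10 turned (−0.014). With libraries left out, HLA-C to B2M on day 1 ran from −0.142 to 0.207, below 0 without replicates 3 or 5 of day 0 or 4 or 5 of day 1 (−0.0964, −0.0192, −0.0967 and −0.142), and HLA-B to HLA-C on day 10 from −0.0045 to 0.466, below 0 without replicate 3 of day 10.

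Same-numbered libraries of different days did not deviate together (median correlation 0.00226 over 105 pairs, 2 of them over 0.1), so the number was read as a name. With the number as a block, HLA-C on day 10 was −0.65 (adjusted p = 0.0306 from edgeR), the counts of called genes were 7, 7, 6, 7, 7 and 6 on the 6 days, and the block changed no other call of these genes against day 0. NLRC5 and TAP1 had the fewest counts of these genes, with 94 to 309 and 232 to 454 per library. The part of depth in their scatter was not tested.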

Other observations

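Genes for class I-like and nonclassical chains, several of which are ligands of the activating receptor NKG2D on natural killer cells, moved in both directions. Among 14 such genes, days 1 and 2 had 3 higher and 6 lower each, day 4 had 2 and 4, days 6 and 8 had 2 and 1 each, and day 10 had 1 and 2. On these days in turn 52.7%, 47.7%, 39.1%, 34.5%, 36.8% and 31.9% of all entries were called. Of the 14, 9 passed the filter on low counts. MICB, an NKG2D ligand, had 9.45 ± 0.684 CPM on day 0, 28.7 ± 1.5 CPM on day 1 and 25.8 ± 3.1 CPM on day 10 (SD, n = 5 each). Its log2 fold change was 1.61 on day 1, 1.76 on day 2 and 1.45 on day 10 (SE 0.11 each, adjusted p = 1.11e-13 from edgeR on day 10), and it was called higher on all 6 later days. ULBP1, another NKG2D ligand, went the opposite way, from 10.9 ± 2.13 CPM to 1.47 ± 0.362 CPM on day 1 (log2 fold change −2.89, SE 0.25, adjusted p = 2.13e-13 from edgeR) and 1.31 ± 0.645 CPM on day 2, and was 0.50 below day 0 on the log2 scale on day 10 (SE 0.20, adjusted p = 0.0489). PROCR, which encodes the endothelial protein C receptor, a class I-like fold, was the highest of the list on day 1 (4.16 ± 1.21 to 16.8 ± 2.31 CPM). HLA-F, a nonclassical chain, was the lowest on day 10 (−0.74, SE 0.26, adjusted p = 0.0267 from edgeR).

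MHC class II genes, which present peptides from outside the cell to CD4+ T cells, fell early. Most were not called on day 8, and 2 fell from day 8 to day 10. Of 9 class II pathway genes, 8, 6, 5, 2, 0 and 3 were lower on the 6 later days in order of time, and 1 was higher on day 8. On these days 27.3%, 24.4%, 20.1%, 17%, 18.6% and 15.8% of all entries were called lower. HLA-DRA and CD74 were chosen after their values were seen. HLA-DRA, an alpha chain, dropped from 104 ± 5.37 to 26.9 ± 1.32 CPM on day 1 (SD, n = 5; log2 fold change −1.94, SE 0.08) and stood at −0.29 on day 10 (SE 0.07, adjusted p = 0.0012 from edgeR). CD74, the invariant chain, was at −1.12 on day 1 and −0.31 on day 10 (SE 0.06 each). HLA-DMB was the lowest on day 1, at 0.0947 ± 0.0868 CPM against 2.68 ± 0.444 on day 0, HLA-DPA1 was the lowest on day 2 (−1.63, SE 0.21) and HLA-DPB1 on day 10 (−0.85, SE 0.34, not past the threshold). HLA-DMA was the highest on days 1, 2 and 10 (−0.57, 0.27 and 0.37). Whether the class I and class II changes differ was not tested.

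Plasma cell markers fell on day 1 (0 higher, 6 lower of 8) and were divided later (4, 2, 3, 3 and 4 higher and 2, 2, 2, 3 and 1 lower on the following days in order). The extremes of that list were PRDM1 (0.07) on day 1, TNFRSF17 (0.55) and JCHAIN (−0.72) on day 2, and MZB1 (0.52) and SDC1 (−0.23) on day 10. Among 12 measured markers of other cells, the later days in order of time had 2, 4, 3, 3, 2 and 1 higher and 4, 2, 0, 1, 1 and 0 lower. For both lists, the share of all entries called on these days was 52.7%, 47.7%, 39.1%, 34.5%, 36.8% and 31.9%. Of these 12, 6 passed the filter on low counts. NCAM1 rose by 1.3 and 1.43 on days 1 and 2, EPCAM by 0.59 on day 10, and CD3E fell by 2.12 and 1.58 on days 1 and 2 on the log2 scale. CD3E had 3 to 32 counts per library (0.44 to 4.81 CPM), so the size of its change is uncertain. NCAM1 was at −0.14 on day 10, not past the threshold.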
